A study of Mus musculus with 2 samples.

Results

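Accessible regions lying far from any start site were examined in CPCs, cardiac progenitor cells obtained from ES (embryonic stem) cells after 5 days of differentiation. The ATAC-Seq peaks taken were those whose midpoint lay more than 100 kb and at most 250 kb from the transcription start site (TSS) assigned to it in the deposited list and whose width was under 1500 bp. Of 26232 distinct peaks, 1514 (5.77%) met this rule, and together they covered 1.26 Mb. The cells came from E14 Tg(Nkx2–5-EmGFP) mouse ES cells, which carry a green fluorescent reporter of Nkx2-5, a homeodomain factor of the forming heart, and the labels give the strain as C57BL/6 and passages 16-20. There was 1 group with 2 replicates from independent differentiations, without knockdown or drug treatment, and 1 list of peaks shared by the replicates. Isl1 knockdown cells, also named by the series, were not analysed here. The list gives a position, a distance, a RefSeq accession and a gene symbol for each peak but no height, so depth was unknown, no replicate error could be given, and every interval below covers counting over peaks or genes only.

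In ATAC-Seq the transposase Tn5 cuts and tags DNA that is not wrapped tightly in nucleosomes, so a peak marks a site where DNA was open in many cells. Open sites far from promoters are often enhancers, which are bound by transcription factors and act on a promoter through looping of the chromatin, or insulators bound by CTCF, which delimit such loops. Genes that control development are known for lying in wide stretches without other genes, with enhancers spread far along them, and a distal site does not always act on the nearest gene.

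The cell label was checked at start sites. Of 5 cardiac progenitor markers, Nkx2-5, Isl1, Tbx5 and Mef2c had a peak within 1 kb of the start site, whereas the nearest peak assigned to Gata4 had its midpoint 1036 bp away. The pluripotency genes Pou5f1 and Nanog and the liver genes Alb and Afp had no peak within 1 kb.

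The 4 distal peaks of Isl1, the LIM-homeodomain factor that gives the study its subject, are shown first because they are the peaks of this gene that lie in the distance range. Each line gives the central 200 bases on the plus strand of mm9, with the distance from the Isl1 start site. Capitals mark matches, on either strand, to the motifs that are described below as more frequent at peak centres than beside them (TEAD, GGAATG; the basic helix-loop-helix E-box, CAGCTG; the MEIS type, TGACAG; POU, ATGCAAAT; FOX, TGTTTAC; and CTCF), leaving out only SP/KLF.
Isl1, 133758 bp upstream, chr13:117233554-117233753: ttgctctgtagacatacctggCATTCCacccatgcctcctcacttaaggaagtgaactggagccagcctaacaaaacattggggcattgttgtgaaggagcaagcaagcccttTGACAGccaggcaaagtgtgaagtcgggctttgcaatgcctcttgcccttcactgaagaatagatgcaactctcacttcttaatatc
Isl1, 186207 bp upstream, chr13:117286004-117286203: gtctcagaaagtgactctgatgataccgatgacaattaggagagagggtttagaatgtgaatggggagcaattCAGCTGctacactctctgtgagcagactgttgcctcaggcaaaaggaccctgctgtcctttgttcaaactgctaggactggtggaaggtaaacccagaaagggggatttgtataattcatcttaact
Isl1, 199622 bp upstream, chr13:117299418-117299617: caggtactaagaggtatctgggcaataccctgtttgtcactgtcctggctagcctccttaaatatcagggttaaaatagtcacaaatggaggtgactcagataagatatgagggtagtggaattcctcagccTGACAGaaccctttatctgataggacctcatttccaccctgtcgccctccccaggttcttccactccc
Isl1, 214307 bp upstream, chr13:117314103-117314302: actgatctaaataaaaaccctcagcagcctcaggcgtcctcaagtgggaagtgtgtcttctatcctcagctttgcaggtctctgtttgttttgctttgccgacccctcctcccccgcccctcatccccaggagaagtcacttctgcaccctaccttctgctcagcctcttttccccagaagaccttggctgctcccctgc

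The nearest of these peaks held a TEAD and a MEIS-type match in its central 200 bases, the next an E-box, the third a MEIS-type match, and the farthest none. All 4 lay upstream of Isl1, between 133758 and 214307 bp, in intergenic sequence for which Isl1 was also the nearest protein coding gene in the GENCODE annotation. They were 664 to 1154 bp wide, and their GC content ran from 44.1% to 49.4%. Isl1 had 8 peaks in all, including 1 at its start site.

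The corresponding stretch is shown for 1 peak of each of 5 other heart regulators, taken as those with the most kinds of these motifs, and then the most matches, in the central 200 bases, so the number of matches in them is a result of the choice. Pbx3 encodes a TALE homeodomain factor, Mef2c a MADS-box factor of muscle genes, Tbx20 and Tbx18 T-box factors, and Nr2f1 an orphan nuclear receptor.
Pbx3, 122191 bp downstream, chr2:34105274-34105473: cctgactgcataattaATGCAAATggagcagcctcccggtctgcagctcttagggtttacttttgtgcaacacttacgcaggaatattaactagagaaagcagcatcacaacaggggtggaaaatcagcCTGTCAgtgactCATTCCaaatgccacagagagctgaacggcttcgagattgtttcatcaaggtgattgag
Mef2c, 216141 bp upstream, chr13:83426793-83426992: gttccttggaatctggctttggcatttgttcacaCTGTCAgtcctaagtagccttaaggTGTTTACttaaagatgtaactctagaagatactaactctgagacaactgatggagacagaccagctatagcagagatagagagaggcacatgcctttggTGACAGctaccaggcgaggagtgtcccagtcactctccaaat
Tbx20, 104549 bp upstream, chr9:24683196-24683395: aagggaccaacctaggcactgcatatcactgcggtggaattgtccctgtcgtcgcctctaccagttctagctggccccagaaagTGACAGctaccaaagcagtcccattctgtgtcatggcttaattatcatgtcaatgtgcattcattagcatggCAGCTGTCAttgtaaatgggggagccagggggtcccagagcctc
Nr2f1, 229034 bp upstream, chr13:78567068-78567267: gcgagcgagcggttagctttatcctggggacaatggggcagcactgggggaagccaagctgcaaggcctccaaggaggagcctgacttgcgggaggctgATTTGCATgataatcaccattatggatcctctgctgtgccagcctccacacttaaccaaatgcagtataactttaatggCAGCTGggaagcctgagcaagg
Tbx18, 112698 bp downstream, chr9:87513297-87513496: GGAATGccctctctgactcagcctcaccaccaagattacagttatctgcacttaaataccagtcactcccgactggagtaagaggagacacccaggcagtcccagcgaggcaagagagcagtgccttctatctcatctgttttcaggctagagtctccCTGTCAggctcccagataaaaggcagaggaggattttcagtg

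The Tbx20 peak illustrates that 2 of the motifs can share bases, since CAGCTG followed by TCA also contains the reverse complement of TGACAG. The Pbx3 and Nr2f1 peaks each held an octamer, the site recognised by POU factors.

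Of 52 genes listed as regulators of heart development, 22 (42.3%, 95% Wilson interval 29.9 to 55.8) had at least 1 distal peak, and together they had 37. Over all 21900 protein coding genes, 860 had a distal peak, a percentage of 3.93. The list was drawn partly from the study's own text and is therefore not independent of chromatin data from such cells, and the assignment is to the nearest start site, which need not be the gene acted on. With the range narrowed by 25 kb at both ends, 26.9% of the heart regulators and 2.51% of coding genes had one. Most heart regulators had some peak at any distance, 50 of 52 (96.2%) against 62.5% of all coding genes (13693).

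A distal peak is assigned to a gene only where the list has no other start site closer to the peak. Genes were therefore also counted by room, defined as over 200 kb to the start site of the next coding gene on 1 side or between the gene's own start sites in GENCODE, a count added after the first values were seen. Of the heart regulators 36 (69.2%) had such room, compared with 16.6% of coding genes in the annotation. Among genes with room, 21 of 36 heart regulators (58.3%, interval 42.2 to 72.9) and 657 of 3021 coding genes (21.7%, interval 20.3 to 23.3) had a distal peak. Another 115 coding genes, 1 of them a heart regulator, had a distal peak without such room and are not in these counts. Coding genes not found in GENCODE, which held 18220 of the 21900, are left out as well. Room is a yes or no cut, so genes with room were not matched for the size of their gaps. No test was made, because the lists were chosen with values of these data known.

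The 37 distal peaks of heart regulators were spread over both sides, with 21 upstream and 16 downstream. By position 23 were intergenic, 13 intronic and 1 exonic. A GENCODE coding start site lay within 50 kb of 6 of the 37, compared with 19.1% of all distal peaks. For 30 of the 37 the assigned gene was the nearest coding gene in GENCODE as well, compared with 57.8% of all distal peaks. These shares are not on the same footing, since only 1209 of the 1514 distal peaks were assigned to a coding gene. Genes were matched by symbol, and GENCODE held the symbol for 80.5% of all distal peaks. Of the 22 genes, 18 also had a peak within 1 kb of the start site, compared with 55.8% of all symbols with a distal peak. Only 1 of the 37, at Fgf10, consisted mostly of repeated sequence as defined below (56.8% of its words).

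Among transcription factors, Tbx20 had 3 distal peaks 104549 to 178714 bp upstream, all intergenic. Mef2c had 2, at 216141 and 236362 bp upstream, which were 517 and 710 bp wide. Tbx5, which is needed for atria and left ventricle, had 1 peak 124534 bp downstream. Tbx18, a factor of the sinus horns and epicardium, had 1 peak 112698 bp downstream. Gata6, a zinc finger factor of the early heart, had 1 peak 116491 bp upstream. Zfpm1, which encodes a cofactor of GATA proteins, had 3 peaks 114659 to 142274 bp upstream, and all 3 lay in introns of other genes. Hey2, a Notch target in the ventricle, had 1 peak 226283 bp upstream. Among the forkhead genes Foxp1 had 2 peaks downstream and Foxc1 had 1.

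Several peaks of TALE homeodomain genes, whose products bind DNA together with HOX and other factors, lay inside the genes. Both peaks of Pbx3, at 111181 and 122191 bp, lay in introns of the gene itself. In GENCODE they lay 47420 and 36410 bp upstream of another Pbx3 start site. Of the 3 peaks of Meis2, 2 lay within the annotated gene. The list placed the Meis2 peaks 184985 to 211762 bp downstream, but GENCODE has another Meis2 start site 3557 to 20086 bp from them. Meis1 had 1 wide peak of 1424 bp at 141664 bp downstream. The orphan nuclear receptor genes Nr2f1 and Nr2f2 had 1 upstream peak each, at 229034 and 138852 bp, and neither had a peak within 1 kb of its start site.

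Among genes for secreted signals and their receptors or partners, Bmp2 had 2 intergenic peaks 122323 and 154332 bp upstream. Fgf10, the growth factor of the second heart field that was also added to the culture, had 1 peak 144660 bp downstream. Wnt5a and Wnt11, ligands of non-canonical Wnt signalling, had 1 peak each, in introns of other genes. Jag1, a ligand of Notch receptors, had 1 peak 171983 bp upstream, in an exon of another annotated gene and at the GENCODE start site of the processed transcript Gm14055. Eya1, a transcriptional coactivator, had 1 peak on either side, of 831 and 1353 bp.

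**Figure D1:**
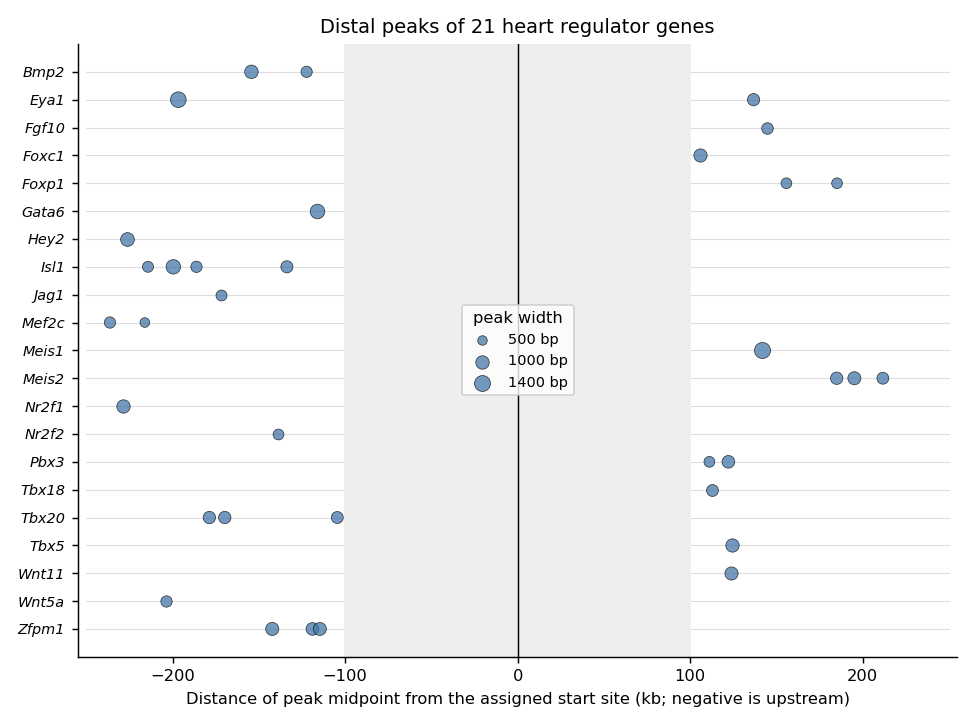
Position of 35 of the 37 distal peaks of heart regulators, assigned to 21 genes. Each circle is a peak, placed by the distance of its midpoint from the assigned start site in kb, with its area scaled to peak width in bp; the grey band holds distances under 100 kb, which the rule leaves out. Isl1 with 4 peaks and Tbx20, Zfpm1 and Meis2 with 3 each have the most.

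Other families were counted in the same way, beside the 3.93% of all coding genes. Distal peaks were found for 3 of 17 T-box genes (17.6%, interval 6.19 to 41), 7 of 44 forkhead genes (15.9%, interval 7.93 to 29.4), 3 of 20 SOX genes (15%, interval 5.24 to 36.0), 6 of 45 nuclear receptor genes (13.3%, interval 6.26 to 26.2) and 21 of 194 homeobox genes (10.8%, interval 7.19 to 16.0). Among FGF, WNT and BMP family ligands it was 7 of 75 genes (9.33%, interval 4.59 to 18). These lists share genes with the heart regulators, for example Isl1, Tbx5 and Foxp1. Among genes with room, the values were 30.0% for T-box genes (3 of 10, interval 10.8 to 60.3), 40.0% for forkhead genes (6 of 15, interval 19.8 to 64.3), 33.3% for SOX genes (3 of 9, interval 12.1 to 64.6), 33.3% for nuclear receptor genes (5 of 15, interval 15.2 to 58.3), 29.5% for homeobox genes (18 of 61, interval 19.6 to 41.9) and 33.3% for the ligands (7 of 21, interval 17.2 to 54.6). All of these intervals include the 21.7% of coding genes with room.

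Genes of the contractile apparatus gave other values. Only Cacna1c, the pore subunit of the L-type calcium channel, had a distal peak among 27 cardiac contraction genes (3.70%, interval 0.657 to 18.3), although 20 of the 27 had a peak at some distance. Only 6 of the 27 had room for one, compared with 36 of the 52 regulators. Zinc finger genes named Zfp gave 4.57% (18 of 394) and ribosomal protein genes 4.76% (4 of 84), values whose intervals include that of all coding genes. No chemoreceptor gene had a distal peak, 0 of 1475, which leaves a Wilson interval of 0 to 0.260%. However, only 36 of the 1411 of these genes found in GENCODE (2.55%) had room, where 0 of 36 leaves a Wilson interval of 0 to 9.64%. Among genes with room, 11 of 38 Zfp genes (28.9%, interval 17.0 to 44.8), 4 of 9 ribosomal protein genes (44.4%, interval 18.9 to 73.3) and 1 of 6 contraction genes (16.7%, interval 3.01 to 56.4) had a distal peak, intervals that again include 21.7%.

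The 1514 peaks carried 1092 gene symbols, of which 307 had 2 or more and 24 had 4 or more. The genes with 5 were Fam43a, Fggy, Igsf21, Mir6351 and Rybp. Rybp, a component of Polycomb complexes, had 5 intergenic peaks 101772 to 246664 bp downstream in addition to a peak at its start site. The 5 peaks of Fam43a were all intergenic, 136364 to 229831 bp downstream, and the gene had no peak within 1 kb of its start site. Fggy, a carbohydrate kinase gene, had 3 peaks upstream and 2 inside the gene, 1 of which lay 2931 bp from another Fggy start site in GENCODE. Igsf21, which encodes an adhesion protein of the immunoglobulin superfamily, had 4 upstream and 1 in an intron of its own. The intronic peak lay at the GENCODE start site of the processed transcript Gm13027. The 5 peaks of the microRNA gene Mir6351 had Tns1 as the nearest coding gene in GENCODE.

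Genes with 4 distal peaks included Isl1, Irx3, Med13l, Bach2, Dlg2, Ly86, Atp6v1h, 0610039H22Rik, Mir148a and Mir1904. Irx3, a homeobox gene, had 3 intergenic peaks 135719 to 226673 bp upstream and 1 on the other side 224868 bp away, in an intron of Fto. Med13l, a subunit gene of the Mediator kinase module, had 3 upstream and 1 within the gene. All 4 peaks of Ly86 and all 4 of Atp6v1h were intergenic and downstream, and 1 of Atp6v1h was mostly repeated sequence (58.4% of words). For Dlg2, which encodes a synaptic scaffold protein, all 4 lay in its own introns, and 88.3% of the words of 1 of them were repeated. Another of the 4, listed at 171581 bp, lay 565 bp upstream of a different Dlg2 start site in GENCODE. The peak nearest to the lower bound belonged to Dpf3, a chromatin remodelling subunit gene expressed in heart, at 100007 bp, and the farthest to Rims1 at 249925 bp.

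Of the 1092 symbols, 609 (55.8%, interval 52.8 to 58.7) also had a peak within 1 kb of the start site. The corresponding share was 58.7% for symbols with a peak at 10 to 50 kb and 52.2% for those with a peak beyond 250 kb. Peaks of the same neighbourhood were rarely grouped: when distal peaks no more than 10 kb apart were joined, 1345 stood alone, 78 formed pairs, 3 groups held 3 and 1 held 4. The group of 4 spanned 24.0 kb of intergenic sequence 123563 to 146534 bp upstream of Rgs6, a regulator of G protein signalling in the heart. A group of 3 lay within 19.3 kb in introns of Flt1, a VEGF receptor.

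Distal peaks became fewer with distance, from 511 in the nearest 25 kb of the range to 109 in the farthest. They were also unequal on the 2 sides, with 613 upstream (40.5%, interval 38.0 to 43.0) and 901 downstream. Intergenic peaks were nearly balanced, 436 upstream and 446 downstream, whereas 270 downstream and 23 upstream peaks lay inside the assigned gene. In all 293 (19.4%) lay in the body of the assigned gene and 339 (22.4%) in another gene. The assigned gene was looked up by symbol, which GENCODE held for 1219 peaks (80.5%). The remaining peaks could not be counted inside it.

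**Figure D2:**
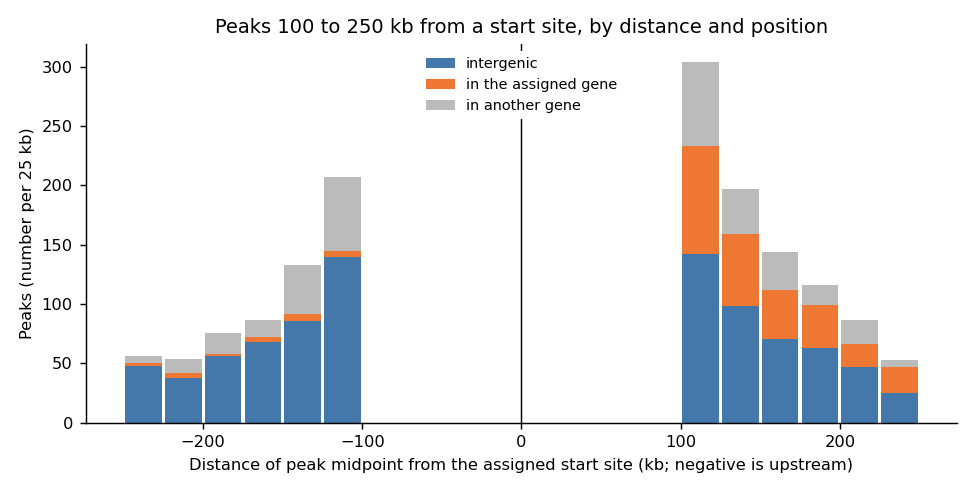
Number of distal peaks per 25 kb of distance from the assigned start site, upstream (negative) and downstream. Colours show whether the midpoint was intergenic, inside the assigned gene or inside another gene in GENCODE. Downstream bars exceed upstream ones mainly by peaks inside the assigned gene (270 against 23). The assigned gene was looked up by symbol, which GENCODE held for 80.5% of the peaks.

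At the edges of the rule, the nearest peak left out on the near side lay at 99959 bp and on the far side at 250324 bp, and the narrowest peak left out for its width in this range was 1506 bp. Another 90 peaks in the distance range were 1500 bp or wider. The peaks kept were 382 to 1495 bp wide with a median of 804 bp (quartiles 665 and 967).

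The midpoints were intergenic in 882 cases (58.3%), intronic in 593 (39.2%) and exonic in 39 (2.58%). The intergenic share exceeded that of peaks at 10 to 50 kb of the same widths by 8.91 percentage points (95% Newcombe interval 6.10 to 11.7, two-sided Fisher's exact test, adjusted p = 2.43e-09 over 27 comparisons) and that of peaks at 50 to 100 kb by 5.16 points (adjusted p = 0.00348). The difference from peaks beyond 250 kb was -19.6 points (interval -23.7 to -15.1, Fisher's exact test, adjusted p = 2.26e-15). Those outside coding genes lay in gaps between such genes with a median of 417 kb, compared with 75.7 kb around peaks at 10 to 50 kb. Position and distance are tied, so these values describe the setting rather than an independent trait.

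Another peak lay within 10 kb of 187 distal peaks (12.4%), compared with 27.7% at 10 to 50 kb (difference -15.4 points, interval -17.3 to -13.3, Fisher's exact test, adjusted p = 1.39e-37). The share was 19.6% at 50 to 100 kb and 7.27% beyond 250 kb. The rule keeps distal peaks away from peaks at the assigned start site. The difference in neighbours therefore describes the setting rather than an independent trait. The median gap from a distal peak to the next peak was 55463 bp. On the X chromosome there were 32 distal peaks, or 0.192 per Mb, and on the autosomes 1481, or 0.599 per Mb. As a share of all peaks on the chromosome, the values were 5.15% and 5.78%. Among autosomes the share ran from 3.92% of peaks on chromosome 19 to 9.53% on chromosome 13.

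The list names 1 start site per peak, and another annotation places some of these peaks closer to a gene. By GENCODE 472 (31.2%) had a protein coding start site within 100 kb and 289 (19.1%) within 50 kb. A start site of any kind lay within 1 kb of 59 (3.90%, interval 3.03 to 4.99), of which 34 were protein coding, 11 pseudogene and 10 processed transcripts. In 13 of the 34 coding cases it was another start site of the assigned gene. Bach2, a transcriptional repressor of the BTB and leucine zipper class, had 2 peaks listed as 178897 and 177601 bp upstream that lay 266 and 757 bp from another Bach2 start site. Tcf4, a basic helix-loop-helix factor, also had 2 such peaks. In 21 cases the start site belonged to another gene, such as Magi2 for a peak listed under Phtf2, Kalrn for Umps, Fry for Rxfp2 and Pde4d for Mir582 and Mir1904.

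GC content was lower than in nearer peaks, with a median of 49.6% (quartiles 46.8 and 52.5) against 51.1% at 10 to 50 kb and 57.5% within 1 kb. A GC content of at least 50% was found in 712 distal peaks (47.0%), a difference of -13.4 percentage points from peaks at 10 to 50 kb (interval -16.2 to -10.6, Fisher's exact test, adjusted p = 1.26e-19) and 9.74 points above peaks beyond 250 kb (adjusted p = 2.64e-04). Only 66 (4.36%, interval 3.44 to 5.51) were CpG-rich, with CpG dinucleotides at 0.6 or more of the number their base content predicts, whereas 66.5% of peaks within 1 kb were. The difference from peaks at 10 to 50 kb, -0.747 points, had an interval of -1.84 to 0.521 (Fisher's exact test, adjusted p = 0.303). Of the 66, 19 lay within 1 kb of a GENCODE start site, 15 were mostly repeated sequence, and 32 were neither.

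Repeated sequence set a small number of distal peaks apart. Each 31-base word of a peak was counted over the whole of mm9, and a peak was called mostly repeated when at least 50% of its words occurred 10 times or more, a measure chosen after the data were seen. This held for 61 distal peaks (4.03%, interval 3.15 to 5.14), compared with 2.15% at 10 to 50 kb (difference 1.88 points, interval 0.911 to 3.04, Fisher's exact test, adjusted p = 1.50e-04 over 3 comparisons), 2.21% at 50 to 100 kb (adjusted p = 0.00198) and 12.2% beyond 250 kb (adjusted p = 8.21e-10). Of the 61, 48 were intergenic and 9 lay on the X chromosome, where they made up 28.1% of distal peaks against 3.44% on the autosomes. Reads from such sequence fit many places equally well, and the study's methods describe no filter on mapping quality. Whether these copies themselves were open was not tested.

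**Figure D3:**
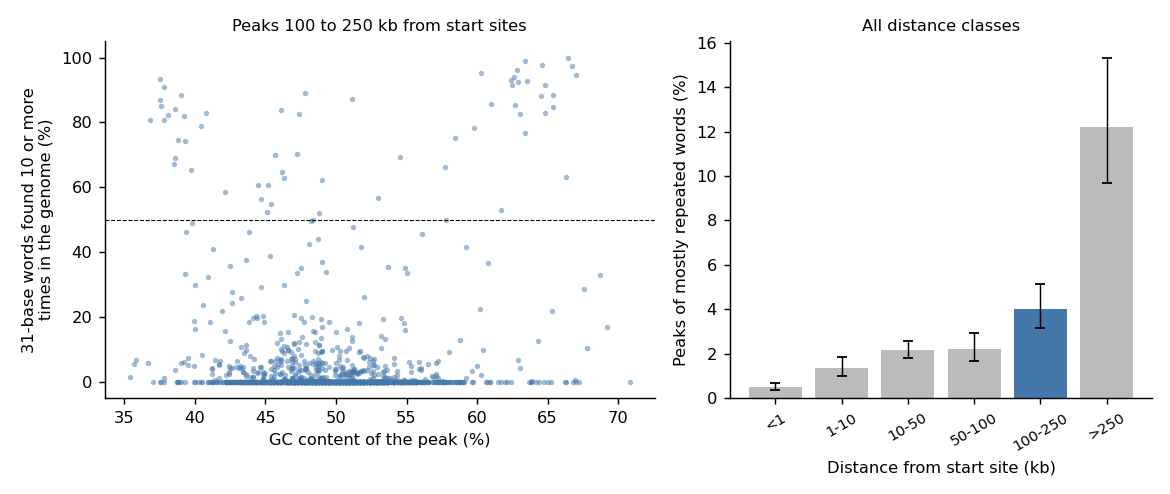
Left, GC content in percent against the percentage of 31-base words found 10 or more times in the genome, 1 point for each of 1514 distal peaks; the dashed line marks 50%. Right, percentage of peaks of mostly repeated words in each distance class with 95% Wilson intervals; distal peaks (blue, 4.03%) lie between those at 50 to 100 kb (2.21%) and those beyond 250 kb (12.2%).

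Most of the 61 repeated peaks lay toward the ends of the GC range, and the rest between 41% and 60%. A GC content of at least 60% was found in 23 of them, whose words had a median of 14 to 2886 copies per peak, and 17 had a GC content below 41%, with medians of 19 to 1411 copies. A word of 12 bases joined a FOX match and a match to CTAATG that share a base. CTAATG is a motif of ISL1 and related homeodomain factors. In distal peaks the word marked a single set of closely similar copies. The word occurred at the centre of 20 distal peaks (1.32%), 15 of them mostly repeated. It matched 921 places in the genome, where the bases around it were not compared, so this is no count of such copies. It was found in 3.06% of peaks beyond 250 kb, 0.722% at 10 to 50 kb and 0.0134% within 1 kb. Windows of 62 bases around it are shown for 2 of the peaks, with the word in capitals, because the bases outside the word were also shared.
Atp6v1h, chr1:5286826-5286887, minus strand: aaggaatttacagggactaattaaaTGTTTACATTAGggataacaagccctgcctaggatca
Hnf4g, chr3:3279632-3279693, minus strand: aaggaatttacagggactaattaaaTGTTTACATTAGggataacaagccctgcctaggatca

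Of the 20 windows, 6 were identical in all 62 bases, and the most divergent differed from the commonest bases at 7 positions. The peaks around them were 414 to 1096 bp wide with a GC content of 36.8% to 44.3%. The FOX motif was found in 109 distal peaks in all and, without the word, in 89 (5.88%).

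Motif content was compared between the centre of each distal peak, a window reaching 150 bp to either side of the midpoint, and a window of the same length 2 kb away in the direction of increasing coordinate. Of 22 motifs searched on both strands, 7 were more frequent at the centre and 2 less frequent (exact McNemar test, two-sided, adjusted over motifs). As a second comparison each motif was spelled backwards, which keeps its bases but not its order. Such spellings were not all neutral, since CAGCTG reversed contains a CG and GGGCGG reversed keeps its one. The CTCF motif and the octamer also gain a CG when reversed. Reversed CTCF was found at 0.0661% of centres and 0% of flanks, and the reversed octamer at 0% and 0.330%. Both were too rare to serve as a comparison.

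The bHLH E-box CAGCTG, which binds factors such as those of muscle and heart, was found at 24.8% of centres (interval 22.7 to 27.0) and 11.7% of flanks (adjusted exact p = 3.70e-19). It was present in 21.3% of all peaks in a window of the same length. The MEIS-type motif TGACAG, bound by TALE homeodomain proteins, was found at 30.4% and 20.3% (adjusted exact p = 1.16e-09), and in 20.8% of all peaks. The TEAD motif GGAATG, bound by the nuclear effectors of Hippo signalling, was found at 25.5% and 16.8% (adjusted exact p = 3.73e-08), and in 16.5% of all peaks. None of the 3 was higher at centres by the test when spelled backwards: TEAD then stood at 8.92% of centres and 11.8% of flanks, TGACAG at 15.4% and 14.5%, and CAGCTG at 0.528% and 0.396%. Members with both TGACAG and CAGCTG numbered 124 at centres, and in 31 of them the matches shared bases.

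CTCF matches were rare but the most concentrated, at 51 centres (3.37%, interval 2.57 to 4.40) and 2 flanks (0.132%, adjusted exact p = 2.33e-12). The motif was present in 2.97% of all peaks. The SP/KLF motif GGGCGG was found at 15.3% of centres and 3.83% of flanks (adjusted exact p = 2.73e-27), but its reversed spelling behaved alike at 14.5% and 4.62%. It was present in 41.9% of all peaks.

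Smaller differences were found for the forkhead motif TGTTTAC (7.20% and 4.43%, adjusted exact p = 0.00382) and the octamer ATGCAAAT (4.56% and 2.64%, adjusted exact p = 0.0159), which were present in 3.64% and 1.94% of all peaks. Without mostly repeated peaks, the values were 6.40% and 4.54% for the forkhead motif and 4.06% and 2.55% for the octamer, and neither passed the test (adjusted exact p = 0.0831 for each).

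Both motifs that were lower at centres consist of A and T for the most part. MEF2 matches were found at 1.78% of centres and 5.55% of flanks (adjusted exact p = 1.07e-07), against 0.926% of all peaks, and its reversed spelling gave 1.12% and 4.89%. The homeodomain motif TAATTA was found at 6.87% and 10.5% (adjusted exact p = 0.00127), against 3.01% of all peaks, but the difference did not pass the test against the window on the other side (adjusted exact p = 0.350). The GATA motif AGATAA was found at 19.2% of centres and 17.9% of flanks (adjusted exact p = 0.589), and in 9.52% of all peaks. Its reversed spelling was found at 9.18% of centres and 17.6% of flanks. CTAATG gave 12% and 12.4% (adjusted exact p = 0.746), and 6.56% of all peaks.

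For the remaining motifs the difference between centre and flank did not pass the test. The NKX2 motif CACTTNA was found at 14.8% of centres and 16.4% of flanks (adjusted exact p = 0.409), the T-box motif AGGTGTGA at 1.52% and 1.12% (adjusted exact p = 0.591) and the SOX motif ACAATGG at 4.36% and 4.76% (adjusted exact p = 0.695). The E-box CATCTG was found at 25.4% and 22.4% (adjusted exact p = 0.133), the AP-1 motif TGANTCA at 10.7% and 8.78% (adjusted exact p = 0.163) and the nuclear receptor motif AGGTCA at 19.5% and 16.8% (adjusted exact p = 0.133). In all peaks these 6 motifs were found in 9.72%, 1.17%, 2.74%, 16.9%, 6.80% and 15.2%, in the same order. The TCF/LEF motif CTTTGAT (4.76% and 5.22%, 3.00% of all peaks) and the CArG box of SRF (1.78% and 2.11%, 1.27% of all peaks) did not pass the test either. Short words such as these also occur by base composition alone, and a match is not evidence of binding.

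**Figure D4:**
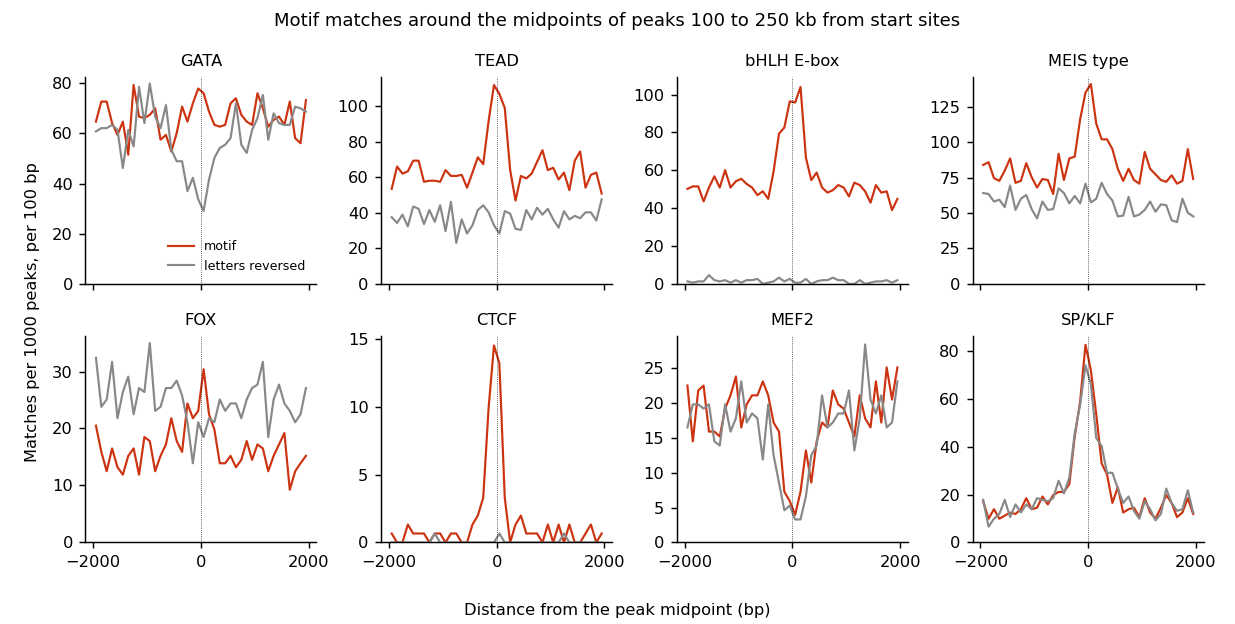
Matches per 1000 distal peaks in bins of 100 bp, within 2000 bp of the peak midpoint, for 8 motifs (red) and the same letters in reverse order (grey). TEAD and the MEIS type peak at the midpoint while their reversed spellings do not. The bHLH E-box and CTCF also peak there, but their reversed spellings are rare (0.528% and 0.0661% of centres). For GATA only the reversed spelling dips, and for MEF2 and SP/KLF both spellings move together.

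Of the motifs that rose at centres other than SP/KLF, 516 distal peaks (34.1%) held none, 619 (40.9%) held 1 kind, 309 (20.4%) held 2, 67 (4.43%) held 3 and 3 held 4. Among the 37 peaks of heart regulators, CAGCTG and TGACAG were each found in 13 (35.1%, interval 21.8 to 51.2), and TEAD and GATA each in 11 (29.7%, interval 17.5 to 45.8). These intervals include the values over all distal peaks. For TAATTA, found in 6 of the 37 (16.2%, interval 7.65 to 31.1), the value over all distal peaks, 6.87%, lay below the interval, and it was the only 1 of 22 motifs outside it. No test was made of these shares.

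Distal peaks were then compared with peaks at 10 to 50 kb, again in windows reaching 150 bp from the midpoint (Fisher's exact test, adjusted over 44 comparisons). They held AGATAA more often by 3.92 percentage points (19.2% and 15.2%, interval 1.80 to 6.17, adjusted exact p = 4.79e-04). The other GATA spelling TGATAA was higher by 3.47 points (adjusted exact p = 3.62e-04), TAATTA by 2.40 (adjusted exact p = 4.31e-04), the octamer by 1.94 (adjusted exact p = 3.62e-04), the forkhead motif by 2.06 (adjusted exact p = 0.00376), TGACAG by 3.53 (adjusted exact p = 0.00982) and TEAD by 2.90 (adjusted exact p = 0.0260). CTCF was lower, 3.37% against 6.12% (difference -2.75 points, interval -3.78 to -1.56, adjusted exact p = 3.49e-05), as was SP/KLF (difference -3.54 points, adjusted exact p = 0.00227). For CAGCTG the difference was -0.678 points with an interval of -3.07 to 1.82 (adjusted exact p = 0.624). The classes on either side of distal peaks were not tested for motifs. At 50 to 100 kb and beyond 250 kb, TEAD was found in 26.1% and 23.3% of peaks and TGACAG in 28.0% and 31.9%. TGATAA stood at 12.1% and 14.9%, and TAATTA at 5.45% and 10.3%. The octamer stood at 3.19% and 4.59%, and the forkhead motif at 5.59% and 9.56%.

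Because distal peaks were poorer in G and C, the comparison was repeated among peaks with a GC content of 45 to 55%, 1104 distal and 4371 at 10 to 50 kb. CTCF stayed lower, 3.44% against 6.68% (difference -3.24 points, adjusted exact p = 6.18e-05), and the octamer higher by 2.15 points (adjusted exact p = 0.00128). GATA kept 2.69 points (adjusted exact p = 0.0495), while TEAD at 1.66 points no longer passed the test (adjusted exact p = 0.342).

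Over the distance classes, CTCF went from 0.830% of peaks within 1 kb to 5.85% at 1 to 10 kb and 6.12% at 10 to 50 kb, and then to 4.41%, 3.37% and 2.10% in the classes beyond. AGATAA went from 3.40% within 1 kb to 15.2%, 16.6%, 19.2% and 20.5% from 10 to 50 kb outwards. The reversed GATA spelling also went up, from 3.35% to 9.18%, but less. The forkhead motif went from 1.66% within 1 kb to 5.14% at 10 to 50 kb and 7.20% in distal peaks. Its reversed spelling went up as well, with 0.991%, 3.59% and 5.22% in the same classes. Against peaks within 1 kb, which are GC-rich promoters, 19 of the 22 motifs were higher in distal peaks and 3 lower. The 3 were SP/KLF (15.3% and 65.1%), the ETS motif CCGGAAGT (0.396% and 7.38%) and the E-box CACGTG (3.37% and 8.57%), all of which contain CG. In all peaks the ETS motif was found in 3.06% and CACGTG in 6.16%.

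**Figure D5:**
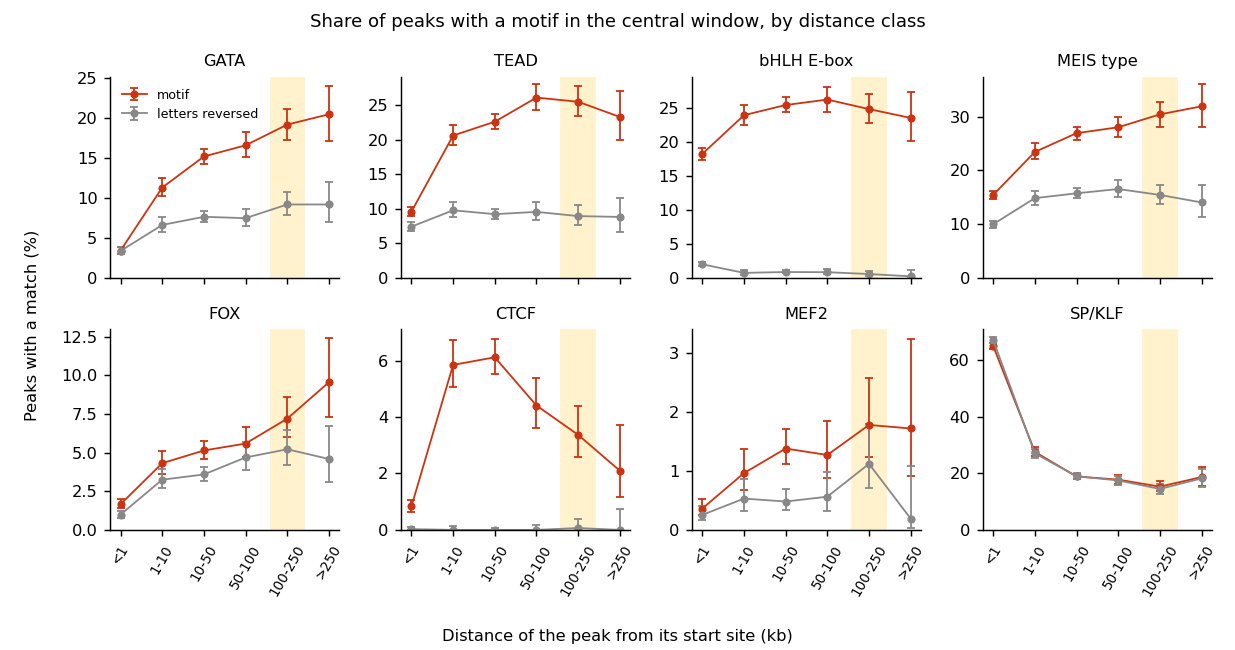
Percentage of peaks with a match within 150 bp of the midpoint, by distance of the peak from its start site in kb, for 8 motifs (red) and the same letters reversed (grey), with 95% Wilson intervals. Distal peaks are shaded. CTCF is highest at 1 to 50 kb and lower in distal peaks (3.37%). GATA and FOX are higher in distal peaks than in nearer ones, and so are their reversed spellings. Beyond 250 kb GATA stands at 20.5% and FOX at 9.56%.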

How the data were processed

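ATAC-Seq libraries were made from 2 replicates of day 5 CPCs. By the methods of the study, bowtie2 placed reads on mm9, which were filtered with samtools and Picard (1.136 in the submitters' processing notes), and peaks were called per replicate with MACS14 under a fixed shift of reads. Blacklisted peaks were removed, and bedtools (2.15) retained peaks that overlapped between replicates by 1 bp or more. The deposited columns are start, end and signed distance to a start site in bp, an accession and a symbol, with no score, p-value or count. A site called in 1 replicate only is not listed, and widths depend on the caller and on depth, which is unknown.

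Distinct intervals were selected by distance and width, with positions written 1-based. Sequence came from NCBIM37 (mm9), gene models from GENCODE vM1, and gene families from RefSeq names (GRCm38.p6, names only, 1451 peaks matched by accession and 63 by symbol or synonym). A midpoint in any exon counted as exonic, otherwise in any gene as intronic. Motifs were exact letter matches on both strands. Shares carry 95% Wilson intervals and differences Newcombe intervals, and p-values were Benjamini-Hochberg adjusted at 0.05. Peaks of 1 list are not replicates, so tests describe differences within this list. The motif search and tests were checked on simulated sequences. Named genes were those with 4 or more distal peaks (at most 15), heart regulators with a distal peak, and the nearest and farthest; 1 heart regulator and 1 repeated peak are counted but not reported here. The members, lists, motifs and tests were chosen with earlier results of these data known. Python 3.11.15, scipy 1.17.1 and pysam 0.24.0 were used.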

Additional observations from a re-analysis of the deposited data

How the results depend on the processing

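No paired analysis was possible because the replicates share 1 list with no value of their own, and for the same reason neither replicate could be left out. Each choice was changed in turn, giving 498 alternative values for 72 results, of which 438 kept their direction and side of the threshold or moved within their interval. With the range narrowed by 25 kb at both ends, 894 peaks, 151 genes with 2 or more and 2.51% of coding genes remained. The share with a peak was then 26.9% for heart regulators, 5.88% for T-box genes, 2.79% for Zfp genes and 0% for contraction genes. Measured to any GENCODE start site, 883 peaks were in range, 72.8% intergenic and 49.5% upstream. Measured to coding start sites, 67.4% were intergenic, 45.5% upstream, and 3.47% of coding genes had one. Without the width limit the median width was 816 bp. Another peak lay within 5 kb of 5.02% and within 25 kb of 31.3%. Counting words found 2 or 100 times, 8.78% and 2.05% were mostly repeated.

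With letters reversed, 1 motif was higher and 8 lower at centres, 12 were higher than within 1 kb, and 2 were higher and 1 lower than at 10 to 50 kb. The centre minus flank difference turned to -2.91 percentage points for TEAD, -0.330 for POU and -2.84 for FOX. Against peaks within 1 kb it turned to -1.43 for CAGCTG and -0.0670 for POU. Against peaks at 10 to 50 kb it turned to -0.282 for TEAD, -0.343 for TGACAG and 0.0661 for CTCF. The values for CTCF and POU rest on reversed spellings that were rare. With flanks at 5 kb, 1 motif was lower at centres. Besides the reversed letters, 13 single motif calls were lost under another setting, for POU, FOX, TAATTA, TEAD, TGACAG and the CArG box. The list has no height and unknown depth, so weak and strong sites weigh alike, and a missing peak is no measure of closed chromatin. The GC range, the other flank, the repeat filter and the leaving out of microRNA genes were chosen after seeing the data.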

Other observations

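Genes without a protein product were frequent among the assigned genes. Symbols of microRNA genes were given to 67 of the 1514 distal peaks (4.43%), compared with 2.49% of all peaks in the list, and accessions of non-coding RNAs to 284 (18.8%), compared with 9.79%. Mir6351, Mir148a and Mir1904 were among the genes with 4 or more distal peaks. The 4 peaks of Mir148a were all intergenic, 101182 to 222438 bp downstream, and 471 to 1413 bp wide. Of the 4 peaks of Mir1904, 2 lay upstream and 2 downstream, and none of the peaks of Mir148a lay within 1 kb of its start site. For 875 of the distal peaks (57.8%) the symbol in the list was also that of the nearest protein coding gene in GENCODE. Such a match was possible only where GENCODE held the symbol, as it did for 1219 peaks (80.5%). These shares were not tested.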
